A study of Homo sapiens with 6 samples.

Results

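The genes described here are those of the lysosome's digestive enzymes and of the vacuolar proton pump, followed in 293T cells given a miR-941 mimic. They were chosen by name, with earlier results of these data known. The choice took 34 listed lysosomal genes and every gene whose symbol begins with ATP6V0 or ATP6V1, pseudogenes left out. This gave 61 genes, of which 54 had counts and 52 passed a filter on low counts, among 26613 genes counted and 15607 tested in all. The 293T line descends from HEK293, a line of human embryonic kidney origin, carries the SV40 large T antigen and takes up nucleic acids easily. In 3 cultures the cells received a duplex that mimics miR-941 at 10 nM in a cationic lipid reagent, 24 h after plating, and in 3 parallel cultures a scrambled oligonucleotide in the same reagent, called the mock group. How much scrambled oligonucleotide was used, and how long after transfection cells were harvested, is not stated in the labels, so an unequal amount cannot be told apart from the effect of the sequence. RNA depleted of ribosomal RNA was sequenced over 100 bases from 1 end.

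Lysosomes break down proteins, glycans and lipids with hydrolases that work in an acidic lumen. The acid comes from the vacuolar proton pump (V-ATPase), a rotary machine in which the V1 sector splits ATP outside the membrane and turns a ring of proteolipids in the V0 sector that carries protons across it. Newly made hydrolases are tagged with mannose 6-phosphate, carried to the lysosome by receptors, and many of their genes are switched on together by the transcription factors TFEB and TFE3 through a promoter element called CLEAR. Defects in single genes of this group cause lysosomal storage diseases, including Tay-Sachs disease (HEXA), Pompe disease (GAA) and the neuronal ceroid lipofuscinoses (PPT1, TPP1, CLN3).

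A transfected microRNA lowers mRNAs whose 3′ UTR pairs with its seed, so the mature strand and its matches in the lysosomal genes are shown first. In the miR-941 strand from RefSeq (GRCh38.p14) the capitals mark the seed, bases 2 to 8, and the complementary mRNA site is GCCGGGT. A search of the longest annotated 3′ UTR found this site in 5 of the 51 tested lysosomal and pump genes with a 3′ UTR, or 9.80%, against 706 of 13110 tested genes, or 5.39%. The genes were CTSA, TPP1, IDS, ATP6V0A2 and ATP6V1H. The printed sites give 15 bases before and 2 bases after the match, which is in capitals.
miR-941: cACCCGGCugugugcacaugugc
CTSA site: aaagtgcccctgcagGCCGGGTtc
TPP1 site: tcaggtgacagtgggGCCGGGTgt
IDS site: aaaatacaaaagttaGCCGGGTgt
ATP6V0A2 site: tattaaaaacgtaaaGCCGGGTtt

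These matches lie in the 3′ UTRs of GENCODE release 29 (GRCh38). The CTSA site is on chromosome 20 at 45898541 to 45898547, plus strand. It starts at base 899 of 1178 in the longest 3′ UTR and is part of 6 of the 7 annotated 3′ UTRs of the gene. The other printed sites are in fewer transcripts. The TPP1 site (chromosome 11, 6616057 to 6616063, minus strand) is in 3 of 17, the IDS site (chromosome X, 149480637 to 149480643, minus strand) in 1 of 5, and the ATP6V0A2 site (chromosome 12, 123761384 to 123761390, plus strand) in 1 of 3. None of the printed sites is followed by an A, the 8mer form. Of the 5 genes with a site, CTSA fell and the other 4 did not pass the test, or 1 of 5 fallen, while 10 of the 46 without one, or 21.7%, fell. Over all tested genes with a 3′ UTR, 11.5% of the 706 with a site fell and 6.76% of the 12404 without one. The shares that rose were 7.22% with a site and 7.49% without.

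Total counts were 6079420 to 7651046 per library, so that 3 counts correspond to 0.392 to 0.493 CPM (counts scaled to the library total, here with trimmed-mean normalization). The lysosomal and pump genes took 0.471% to 0.486% of the counts in the mimic libraries and 0.498% to 0.509% in the mock libraries, with no overlap between the groups. Markers of the 293 line were present, with vimentin at 1038 CPM in the mimic and 982 CPM in the mock group and KRT8 at 580 and 588 CPM, while LHX1 and NEFL had no count under their current gene identifiers. NEFM and KRT18 of the same list rose. Of 8 macrophage markers, 7 were below 1 CPM on average or had no count, and their sum was 2.20 to 4.48 CPM in any library. The labels call the transfections independent replicates, and since these are bulk libraries, fewer cells expressing a gene and less RNA per cell cannot be told apart.

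Lysosomal and pump genes that changed were nearly all lower after the mimic. The test was edgeR's quasi-likelihood fit, with p-values adjusted by the Benjamini-Hochberg method across all tested genes and a threshold of 0.05, and below it is cited as the edgeR adjusted p. At that threshold 11 of the 52 fell and 1 rose. Over all tested genes 13.0% were called, 6.19% fallen and 6.80% risen, against 23.1% of the 52. The changes were small: no gene of the group moved by as much as 1.5-fold, and the median log2 fold change was −0.04 against 0.00 over all tested genes. Of the 52 genes 35 were lower and 17 higher in the mimic group, where 7740 of all tested genes were lower and 7867 higher. In 20 of the 52 the 3 mimic libraries lay on one side of the 3 mock libraries, where 28.3% of all tested genes did so. The fallen genes were split between the 33 tested listed lysosomal genes (5) and the 19 tested pump genes (6).

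**Figure D1:**
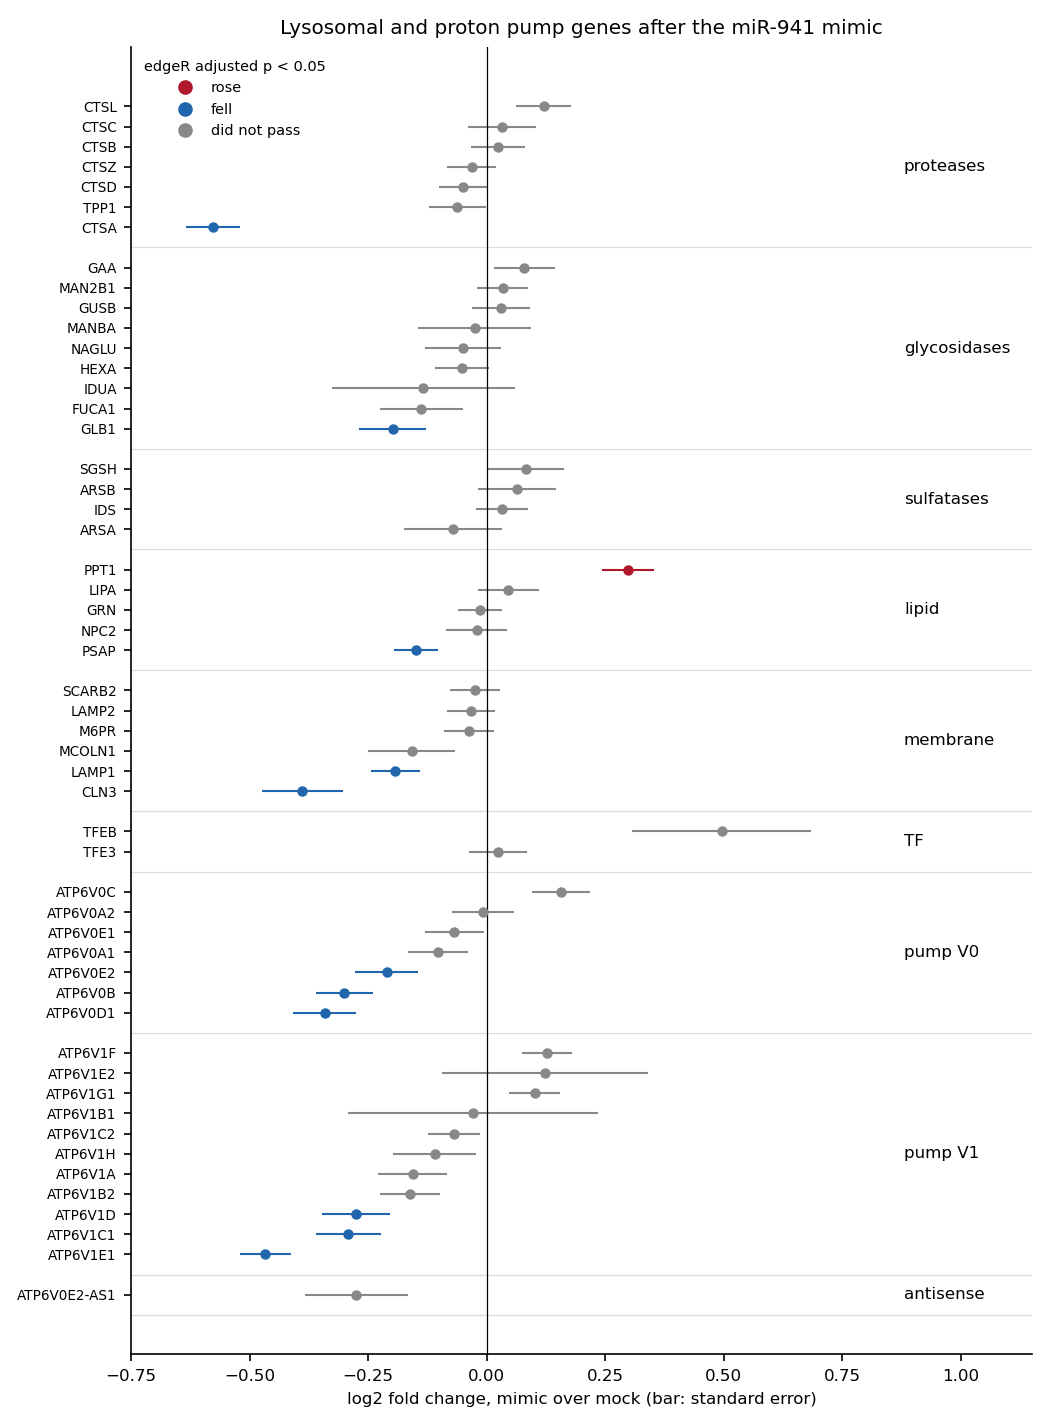
Log2 fold change (horizontal axis, mimic over mock) with its standard error for the 52 tested genes, grouped by role. Blue points fell and red points rose at an adjusted p under 0.05. CTSA at −0.58 and ATP6V1E1 at −0.47 lie farthest to the left, and PPT1 at 0.30 is the one red point.

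Among the 7 lysosomal peptidases CTSA fell and the other 6 did not pass. CTSA (ENSG00000064601, chromosome 20, 45890144 to 45898820, plus strand, GRCh38) encodes cathepsin A, a serine carboxypeptidase that also shields β-galactosidase and neuraminidase from breakdown in a shared complex. Its level was 89.9, 94.0 and 90.8 CPM in the mimic libraries and 138.2, 126.9 and 145.4 CPM in the mock libraries. The groups did not overlap, and the lowest mock library was well above the highest mimic library. CTSA fell by 33.0%, a log2 fold change of −0.58 ± 0.06 (SE, n = 3 per group, edgeR adjusted p = 1.72e-12).

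The other peptidases did not pass. CTSL, a cysteine protease higher in every mimic library, had 106.9 ± 6.21 CPM (SD, n = 3) after the mimic and 98.1 ± 3.93 CPM in the mock group, with a log2 fold change of 0.12 ± 0.06 (edgeR adjusted p = 0.177). TPP1, which removes tripeptides from protein ends and has a seed match, had a log2 fold change of −0.06 ± 0.06, with a 95% interval of −0.18 to 0.06. The aspartic protease CTSD, at −0.05 ± 0.05, and the cysteine proteases CTSB, CTSC and CTSZ, between −0.03 and 0.03, also stayed above the threshold. Per kilobase of exon, CTSZ (97.2 CPM per kb) and CTSD (93.7 CPM per kb) were the most abundant of the peptidases. More than 50% of the CTSD exon length (54.9%) is shared with an unnamed gene on the same strand, counted at 39.7% of its level.

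Of 9 tested glycosidases only GLB1 passed, and that call was weak. GLB1, the β-galactosidase that CTSA protects, had 54.6, 53.5 and 51.6 CPM in the mimic libraries and 64.0, 62.4 and 56.6 CPM in the mock libraries. All mimic libraries were below all mock libraries, with mock replicate 3 nearest to them. The log2 fold change was −0.20 ± 0.07 (edgeR adjusted p = 0.0479), and the call held under 3 of 12 alternative settings (adjusted p 0.0314 to 0.236). It ended when any single library but mock replicate 3 was left out, most so without mock replicate 1. FUCA1, an α-fucosidase, was also lower in every mimic library (31.2 ± 0.55 against 34.2 ± 1.94 CPM) but did not pass (edgeR adjusted p = 0.334). GAA, HEXA, GUSB, NAGLU, MAN2B1, MANBA and IDUA, which remove other sugars from glycogen, gangliosides, glycosaminoglycans and glycoproteins, had log2 fold changes of −0.13 to 0.08 and did not pass. GUSB was the most abundant per exon length, at 43.1 CPM per kb.

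None of the 4 enzymes that remove sulfate passed, and their log2 fold changes lay between −0.07 and 0.08. SGSH and ARSB, which act on heparan and dermatan sulfate, were at 42.9 ± 3.88 and 44.0 ± 5.19 CPM after the mimic and at 40.7 ± 1.79 and 42.2 ± 2.82 CPM in the mock group. IDS, the iduronate sulfatase, has a seed match in its longest 3′ UTR and a log2 fold change of 0.03 ± 0.05, with a 95% interval of −0.08 to 0.14. IDS was the most abundant of the 4 per exon length, at 14.1 CPM per kb.

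Among genes of lipid breakdown 1 rose, 1 fell and 3 did not pass. PPT1 (ENSG00000131238), a thioesterase that removes fatty acids from proteins, was the one risen gene of the whole group. It had 136.2, 134.3 and 132.7 CPM in the mimic libraries against 111.2, 105.5 and 111.5 CPM in the mock libraries, with no overlap between the groups. The log2 fold change was 0.30 ± 0.05 (edgeR adjusted p = 3.07e-05). Its exons overlap over 27.3% of their length with those of CAP1, which is transcribed the other way, had 248.3% of the counts of PPT1 and a log2 fold change of −0.03. The labels do not say whether the counting used strand.

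PSAP, the precursor of the saposins that help hydrolases reach lipids, was the most abundant gene of the group per exon length, at 192.8 CPM per kb. Its level was 554.1, 542.0 and 482.6 CPM in the mimic libraries and 589.1, 571.4 and 592.6 CPM in the mock libraries. Mimic replicate 3 was the lowest library and the other mimic libraries lay closer to the mock group. PSAP fell by 9.88%, a log2 fold change of −0.15 ± 0.05 (edgeR adjusted p = 0.0209). Without mimic replicate 3 the log2 fold change was −0.09 and the call ended (edgeR adjusted p = 0.125), as it also did on removal of mock replicate 1 (0.0877) or of mock replicate 3 (0.110) and by DESeq2's Wald test (0.0574). GRN, the progranulin gene, at 304 and 307 CPM on average, the acid lipase LIPA and the sterol carrier NPC2 did not pass, with log2 fold changes between −0.02 and 0.05.

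All 6 genes of membrane proteins and sorting were lower on average in the mimic group, and 2 fell. CLN3, a lysosomal membrane protein mutated in juvenile Batten disease, had 31.6, 29.8 and 28.2 CPM in the mimic libraries and 39.2, 37.7 and 41.0 CPM in the mock libraries. The log2 fold change was −0.39 ± 0.09 (edgeR adjusted p = 6.34e-04). An unnamed gene on the same strand shares 25.5% of the CLN3 exon length, was counted at 96.1% of its level and changed by −0.38. How reads over the shared bases were assigned is not stated in the labels.

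LAMP1, one of the main glycoproteins of the lysosomal membrane, had 142.2, 139.4 and 143.1 CPM in the mimic libraries against 165.6, 152.8 and 167.4 CPM in the mock libraries. The groups did not overlap, and LAMP1 fell by 12.5% (log2 fold change −0.19 ± 0.05, edgeR adjusted p = 0.00616). The edgeR adjusted p was 0.0546 without mock replicate 1 and 0.0590 without mock replicate 3. Its relative LAMP2 had 168.9, 155.8 and 156.0 CPM after the mimic and 161.0, 172.7 and 158.4 CPM in the mock group, so that the groups overlapped. The LAMP2 log2 fold change was −0.03, with a 95% interval of −0.13 to 0.07. The difference between LAMP1 and LAMP2 was not tested.

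MCOLN1, the calcium channel of the lysosomal membrane, had 27.4, 26.0 and 27.1 CPM in the mimic libraries and 29.8, 30.2 and 29.8 CPM in the mock libraries. Every mimic library was lower, but the log2 fold change of −0.16 ± 0.09 did not pass (edgeR adjusted p = 0.282). SCARB2, the receptor that carries glucocerebrosidase, and M6PR, the cation-dependent mannose 6-phosphate receptor, had log2 fold changes of −0.02 ± 0.05 and −0.04 ± 0.05 and did not pass.

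The 2 transcription factors did not pass. TFEB was low, at 7.78, 7.26 and 7.24 CPM in the mimic libraries and 6.51, 4.03 and 5.25 CPM in the mock libraries. All mimic libraries were above all mock libraries, and the log2 fold change of 0.50 ± 0.19 had an edgeR adjusted p of 0.0729. Without mock replicate 1 it was 0.69 and passed (edgeR adjusted p = 0.0360). TFE3 was more abundant per exon length (24.2 against 1.42 CPM per kb). It had 85.9, 79.5 and 85.0 CPM in the mimic libraries and 83.8, 78.4 and 84.1 CPM in the mock libraries, which overlapped. Its log2 fold change was 0.02, with a 95% interval of −0.10 to 0.14.

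**Figure D2:**
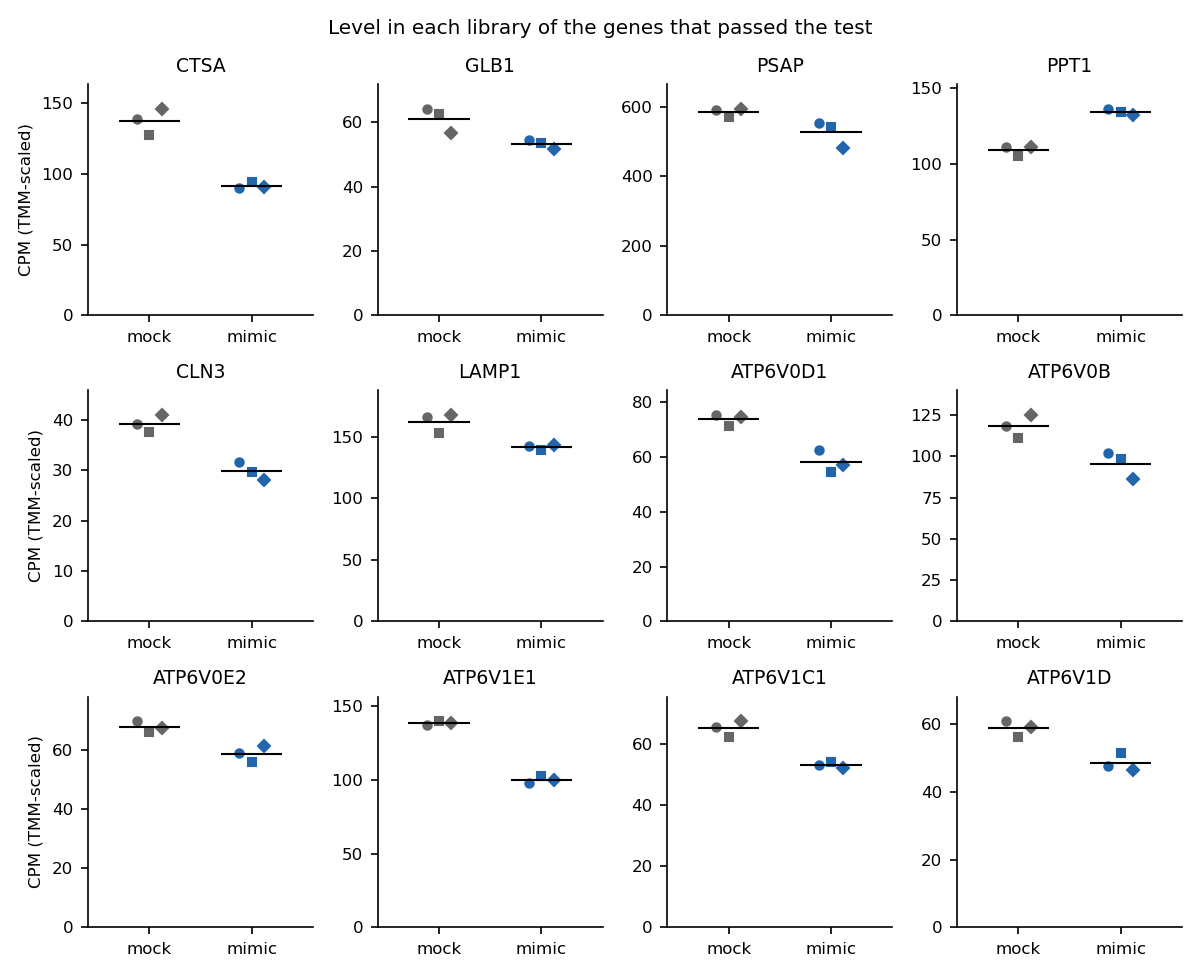
TMM-scaled CPM (vertical axis, from 0) in each library for the 12 genes that passed the test. Circles, squares and diamonds are replicates 1, 2 and 3 of each group, and the horizontal lines are means. In all 12 panels the mock and mimic libraries do not overlap, and PPT1 is the only panel in which the mimic libraries are higher.

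The proton pump genes are 27 by name, of which 19 were tested: 7 of V0, 11 of V1 and the antisense transcript ATP6V0E2-AS1. None rose and 6 fell, or 31.6% of those tested, where 6.19% of all tested genes fell. Their median log2 fold change was −0.11, and 15 of 19 were lower in the mimic group. The summed level of the V1 subunits was 768.2, 766.7 and 766.9 CPM in the mimic libraries and 842.7, 823.8 and 816.2 CPM in the mock libraries, which did not overlap. That of V0 was 592.1, 548.7 and 604.1 CPM against 629.2, 618.7 and 633.4 CPM, also without overlap.

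In the V1 sector the subunits of the stalks and rotor that fell were ATP6V1E1, ATP6V1C1 and ATP6V1D. ATP6V1E1 (ENSG00000131100), the E subunit of the peripheral stalks, had 98.1, 102.7 and 99.6 CPM in the mimic libraries and 137.1, 139.6 and 138.5 CPM in the mock libraries. The spread within each group was small beside the gap between them. ATP6V1E1 fell by 27.6%, a log2 fold change of −0.47 ± 0.05 (edgeR adjusted p = 4.53e-10). No miR-941 seed match was found in its 3′ UTR. The call held under all 12 alternative settings, with log2 fold changes of −0.49 to −0.45.

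ATP6V1C1, the C subunit that joins the stalks to V0, had 53.0, 54.2 and 51.9 CPM in the mimic libraries against 65.7, 62.2 and 67.4 CPM in the mock libraries, with no overlap. Its log2 fold change was −0.29 ± 0.07 (edgeR adjusted p = 0.00149). ATP6V1D, part of the central rotor, had 47.6, 51.3 and 46.4 CPM against 60.8, 56.2 and 59.2 CPM, also with no overlap. It changed by −0.28 ± 0.07 (edgeR adjusted p = 0.00457). Its exons overlap over 13.7% of their length with EIF2S1, which is transcribed the other way, had 229.7% of the counts of ATP6V1D and a log2 fold change of −0.12.

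The subunits of the ATP-binding head of V1 did not pass. ATP6V1A, the catalytic A subunit, had 49.98, 54.1 and 48.8 CPM in the mimic libraries and 60.4, 57.7 and 51.8 CPM in the mock libraries, which overlapped (log2 fold change −0.16 ± 0.07, edgeR adjusted p = 0.159). ATP6V1B2, the widely expressed B subunit, had 77.8, 73.1 and 71.8 CPM against 79.6, 81.9 and 88.4 CPM. Its mimic libraries were all lower, and its log2 fold change of −0.16 ± 0.06 had an edgeR adjusted p of 0.0797. ATP6V1B1, the B subunit of acid-secreting kidney cells, was near 3 CPM in every library (2.44 to 4.31 CPM), with a log2 fold change of −0.03 ± 0.26.

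The remaining V1 subunits did not pass, and 3 of them were higher on average. ATP6V1F, a rotor subunit and the most abundant pump subunit per exon length (172.6 CPM per kb), had 139.5, 142.4 and 144.8 CPM in the mimic libraries and 134.0, 130.8 and 125.4 CPM in the mock libraries. All mimic libraries were higher, with a log2 fold change of 0.13 ± 0.05 (edgeR adjusted p = 0.104). ATP6V1G1, the partner of E in the peripheral stalks, had 150.5, 143.3 and 154.3 CPM against 145.1, 143.1 and 128.5 CPM, which overlapped (0.10 ± 0.05, edgeR adjusted p = 0.227). For ATP6V1E2, the rarer E subunit, the values were 5.01, 4.75 and 4.25 CPM after the mimic and 3.66, 4.73 and 4.59 CPM in the mock group (0.12 ± 0.22).

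ATP6V1H is a regulatory subunit with a seed match in 2 of its 7 annotated 3′ UTRs. It had 32.1, 32.0 and 31.8 CPM against 35.8, 31.0 and 36.9 CPM, so that mock replicate 2 was the lowest of all (−0.11 ± 0.09, edgeR adjusted p = 0.471). ATP6V1C2 had 111.6, 106.0 and 109.7 CPM against 118.1, 112.3 and 112.8 CPM, with all mimic libraries lower (−0.07 ± 0.06). Its level is uncertain, because 31.1% of its exon length lies opposite exons of PDIA6, which was counted at 314.9% of its level.

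In V0 the fallen genes were ATP6V0D1, ATP6V0B and ATP6V0E2. ATP6V0D1, the d subunit that couples the rotor to the ring, had 62.6, 54.5 and 57.0 CPM in the mimic libraries and 75.1, 71.3 and 74.6 CPM in the mock libraries. The groups did not overlap and the log2 fold change was −0.34 ± 0.07 (edgeR adjusted p = 1.25e-04). ATP6V0B, a proteolipid of the ring, had 101.8, 98.6 and 86.1 CPM against 118.5, 110.9 and 124.9 CPM, and fell by 18.8% (−0.30 ± 0.06, edgeR adjusted p = 1.65e-04). Mimic replicate 3 was its lowest library.

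ATP6V0E2, a small membrane subunit, had 59.1, 55.9 and 61.4 CPM in the mimic libraries and 69.8, 66.3 and 67.7 CPM in the mock libraries. It changed by −0.21 ± 0.07 (edgeR adjusted p = 0.0247), and the call held under 7 of 12 alternative settings (adjusted p 0.00938 to 0.124). The 4 libraries whose removal ended it were mimic replicate 1 (0.0678), mimic replicate 2 (0.120), mock replicate 1 (0.124) and mock replicate 3 (0.0655), and it also ended by DESeq2's Wald test (0.113). The antisense transcript ATP6V0E2-AS1, which shares 622 bases with it, had 18.9, 18.4 and 17.0 CPM against 22.9, 21.7 and 21.2 CPM and did not pass (−0.27 ± 0.11, edgeR adjusted p = 0.0824). Without known strand, reads over the shared bases cannot be told apart.

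The other V0 subunits did not pass. ATP6V0C, the main proteolipid of the ring, had 124.8, 113.4 and 142.3 CPM in the mimic libraries and 118.3, 110.4 and 111.6 CPM in the mock libraries. The groups overlapped, the log2 fold change was 0.16 ± 0.06 (edgeR adjusted p = 0.0803), and without mimic replicate 2 it was 0.23 and passed (0.00727). An unnamed gene on the same strand shares 57.5% of its exon length and was counted at 101.0% of its level. ATP6V0E1 had 80.2, 75.2 and 78.1 CPM against 79.5, 85.1 and 80.2 CPM (−0.07 ± 0.06, edgeR adjusted p = 0.535).

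Subunit a, which holds the half-channels for protons and directs the pump to its membrane, comes in 4 forms. ATP6V0A1 had 99.0, 87.2 and 111.4 CPM in the mimic libraries and 101.2, 109.4 and 108.5 CPM in the mock libraries, with the mimic libraries spread widely. Its log2 fold change of −0.10 ± 0.06 did not pass (edgeR adjusted p = 0.326), but without mimic replicate 3 it was −0.19 and passed (0.0172). ATP6V0A2, with a seed match in 1 of its 3 annotated 3′ UTRs, had 64.5, 63.7 and 67.7 CPM against 66.2, 64.9 and 65.7 CPM. Its log2 fold change was −0.01, with a 95% interval of −0.14 to 0.12.

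**Figure D3:**
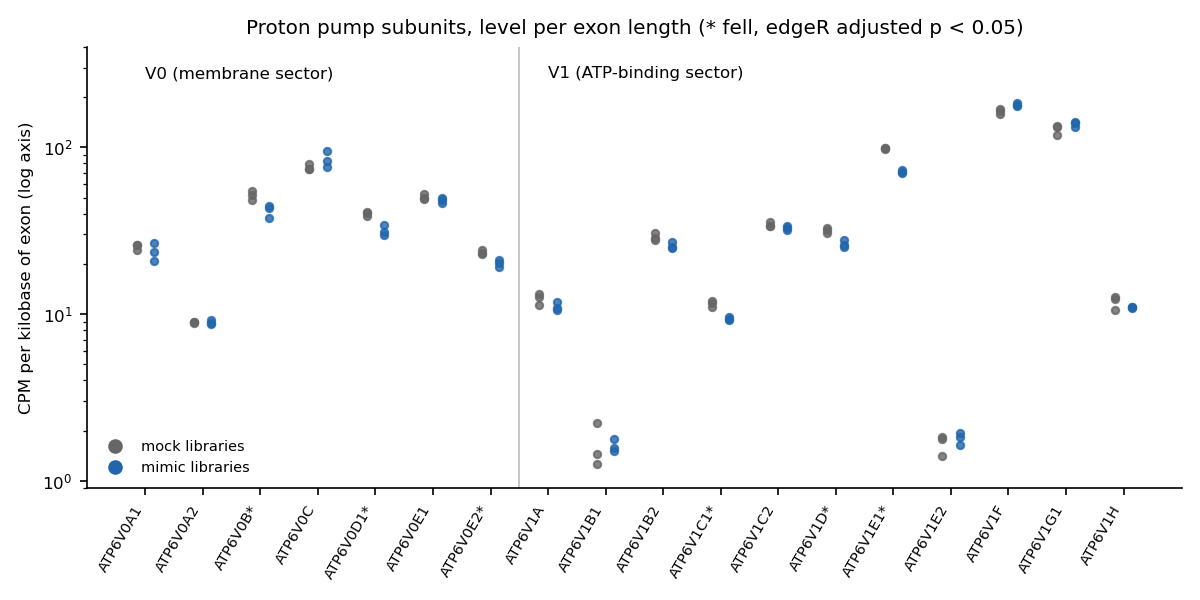
Level per kilobase of exon (vertical axis, log scale) of the 18 tested pump subunits in each mock (grey) and mimic (blue) library. Subunits marked with an asterisk fell. ATP6V1F, ATP6V1G1 and ATP6V1E1 are the highest and ATP6V1B1 and ATP6V1E2 the lowest in V1, and the separation of grey and blue points is widest for ATP6V1E1.

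The tissue-restricted pump forms ATP6V0A4 and ATP6V0D2 were scarce in these cells. ATP6V0A4, the kidney form of subunit a, had 2 counts in all 6 libraries together, and ATP6V0D2 was at or below 0.543 CPM in each. By length-scaled counts ATP6V0A1 made up 68.6% ± 2.83 (SD, n = 3) of subunit a in the mimic group and 69.8% ± 0.33 in the mock group, with ATP6V0A2 at 25.9% and 24.6% and the osteoclast form TCIRG1, not in the group by its name, at 5.38% and 5.54%. The B subunit was ATP6V1B2 to 94.1% and 94.7%. The share of ATP6V1E1 among E subunits was 97.5% ± 0.22 after the mimic and 98.3% ± 0.21 in the mock group, and its ranges did not overlap. ATP6V1C1 made up 22.23% ± 0.75 of the C subunits against 25.04% ± 0.81, also without overlap. Its partner ATP6V1C2 made up the larger share, 77.77% and 74.96%, though it is the uncertain value named above. These shares were not tested.

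Of the 61 genes, 7 had no count and were not analysed: NEU1, ATP6V1G2, ATP6V1G3, ATP6V0D1-DT, ATP6V1B1-AS1, ATP6V1FNB and ATP6V1G2-DDX39B. NEU1 and ATP6V1G2 lie on the short arm of chromosome 6, where 22 of the 71 protein-coding genes within 500 kb of NEU1 had any count, or 31.0%, against 84.2% of all protein-coding genes. A value of 0 there is therefore not read as absence of the transcript.

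TFEB and TFE3 bind the E-box CACGTG, and more strongly in the extended CLEAR forms, TCACGTGA and a 10-base form with 1 G before and 1 C after it. All 3 read the same on both strands, and each longer form contains the shorter. Promoter windows from RefSeq (GRCh38.p14), 250 bases before to 50 bases after a start site, were found for 45 of the 61 genes. CACGTG was present in 12 of the 45, or 26.7%, against 7.26% of 35116 windows, TCACGTGA in 8, or 17.8%, against 0.980%, and the 10-base form in 3, or 6.67%, against 0.353%. The 35116 windows are all those of the source, for genes with or without counts here, while each gene of the group has 1 window. The shares are therefore not like for like. Among tested genes with a window, 1099 had CACGTG and 9841 did not, and 211 had TCACGTGA. Of the 12 genes of the group with CACGTG, NEU1 and ATP6V0D1-DT had no count. Windows were not found for CTSB, HEXA, NAGLU, MANBA, SGSH, ARSA, PSAP, LAMP2, ATP6V0D2, ATP6V0E1, ATP6V1A, ATP6V1B2, ATP6V1C1, ATP6V1E2, ATP6V1FNB and ATP6V1H.

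Of the 10 tested genes with CACGTG in the window 6 fell and none rose, and of the 28 tested genes with a window but no CACGTG 3 fell and 1 rose. Among all tested genes with a window, 9.10% of 1099 with CACGTG fell and 7.83% rose, and 6.73% of 9841 without it fell and 7.31% rose. With the longer TCACGTGA, 4 of 7 genes of this group fell, as did 13.7% of 211 tested genes. The stretches below, all upstream of the start site, belong to the 6 fallen genes and give 20 bases beyond the outermost upstream CACGTG, as far as the start site allows. Capitals mark CACGTG and, where they continue it, the flanking bases of the longer forms.
CTSA: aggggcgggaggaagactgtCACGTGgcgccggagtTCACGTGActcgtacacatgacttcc
LAMP1: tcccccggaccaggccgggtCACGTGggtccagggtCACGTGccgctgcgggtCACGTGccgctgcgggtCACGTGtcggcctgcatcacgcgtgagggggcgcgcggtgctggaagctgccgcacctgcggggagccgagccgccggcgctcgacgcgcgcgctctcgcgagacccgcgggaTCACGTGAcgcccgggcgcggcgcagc
CLN3: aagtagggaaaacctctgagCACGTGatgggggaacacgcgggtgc
ATP6V0B: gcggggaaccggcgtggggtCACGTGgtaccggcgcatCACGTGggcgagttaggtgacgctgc
ATP6V0D1: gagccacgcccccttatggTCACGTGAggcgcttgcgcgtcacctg
ATP6V0E2: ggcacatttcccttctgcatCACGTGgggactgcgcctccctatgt

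On GRCh38 these stretches are chr20:45891273-45891334 (CTSA, plus strand), chr13:113297027-113297236 (LAMP1, plus), chr16:28492079-28492124 (CLN3, minus), chr1:43974883-43974946 (ATP6V0B, plus), chr16:67481191-67481236 (ATP6V0D1, minus) and chr7:149872876-149872921 (ATP6V0E2, plus). LAMP1 had 5 copies upstream of its start site, and CTSA and ATP6V0B 2 each. CLN3 and LAMP1 each have 1 more copy, as TCACGTGA, that spans the start site and is not in the printed stretch, and for CLN3 it is the only TCACGTGA of the window. The ATP6V0D1 stretch is also part of the window of the divergent transcript ATP6V0D1-DT, so that 1 site is counted for both. The genes with the full 10-base element were GAA, MCOLN1 and ATP6V1G1, shown next because none of them passed.
GAA: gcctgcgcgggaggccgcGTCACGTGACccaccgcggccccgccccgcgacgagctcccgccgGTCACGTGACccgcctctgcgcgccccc
MCOLN1: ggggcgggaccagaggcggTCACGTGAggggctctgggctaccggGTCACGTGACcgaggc
ATP6V1G1: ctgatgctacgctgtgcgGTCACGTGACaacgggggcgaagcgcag

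Their log2 fold changes were 0.08 ± 0.06 for GAA, −0.16 ± 0.09 for MCOLN1 and 0.10 ± 0.05 for ATP6V1G1. The other tested gene with CACGTG, CTSD, had a log2 fold change of −0.05 ± 0.05. A match is a description of the letters in the window, and binding was not measured.

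Other genes of the lysosome were read from 7 lists of its further enzymes, membrane proteins, pump assembly factors, sorting and control genes. Of 140 tested genes 16 fell and 4 rose, or 14.3% called, close to the 13.0% of all tested genes. By direction they differed from all tested genes, of which 6.19% fell and 6.80% rose. In these lists 106 genes were lower and 34 higher in the mimic group, with a median log2 fold change of −0.06. Of all tested genes 7740 were lower and 7867 higher. Leaving out mimic replicate 1 gave 13 calls in place of 20. Across all tested genes it gave 757 risen and 688 fallen in place of 1061 and 966. In these lists 2 genes, both fallen, changed by more than 1.5-fold. SMPD1, the acid sphingomyelinase, had 16.9, 17.3 and 20.5 CPM in the mimic libraries against 36.2, 28.5 and 37.4 CPM in the mock libraries, with no overlap (log2 fold change −0.90 ± 0.10, edgeR adjusted p = 6.99e-10). SLC36A1, which moves amino acids out of the lysosome with protons, had 37.5, 29.5 and 36.5 CPM against 56.7, 56.5 and 54.3 CPM, also with no overlap (−0.70 ± 0.08, edgeR adjusted p = 2.97e-10). No miR-941 seed match was found in the 3′ UTR of either gene.

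Of 33 further luminal proteins 2 fell, SMPD1 among them, and none rose. Among 23 further membrane proteins 3 fell and 1 rose, and the fallen ones were SLC36A1, HGSNAT, which acetylates heparan sulfate (−0.33 ± 0.08), and GLMP (−0.31 ± 0.08, but an adjusted p of 0.0882 without mimic replicate 1). The risen one was CD68, a glycoprotein abundant in macrophage lysosomes, from 16.0 ± 1.01 to 20.6 ± 1.68 CPM, while the macrophage markers CD14 and CSF1R averaged 1.91 and 0.426 CPM after the mimic and 2.24 and 0.522 CPM in the mock group. The CD68 call ended on removal of mimic replicate 1 (0.135), mimic replicate 2 (0.0605) or mock replicate 2 (0.119), and by DESeq2's Wald test (0.127). CD68 and, below, CLN8, WIPI1, VPS18 and ULK1 are named because they complete the counts, a choice made after their values were seen. Of 15 accessory and assembly genes of the pump 1 fell, the assembly factor CCDC115 at the threshold (−0.27 ± 0.10, edgeR adjusted p = 0.0499), and 14 of 15 were lower on average, with a median of −0.09. CCDC115 overlaps IMP4, counted at 338.8% of its level, and its call ended in 9 of 12 alternative settings, among them without any 1 library other than mimic replicate 2 (0.0691 to 0.268).

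In the list of mannose 6-phosphate tagging and sorting, 3 of 15 fell and 1 rose. IGF2R, the large mannose 6-phosphate receptor, fell from 365.6 ± 5.95 to 318.7 ± 2.41 CPM, and CLN6, an endoplasmic reticulum protein of enzyme export, from 87.2 ± 4.33 to 73.8 ± 3.99 CPM. CLN8, which works with CLN6 and has a seed match in 5 of its 8 annotated 3′ UTRs, fell from 28.2 ± 1.62 to 21.8 ± 0.76 CPM (adjusted p 0.0508 without mock replicate 3). SUMF2, a relative of the sulfatase-activating enzyme, rose from 73.2 ± 1.74 to 95.1 ± 9.15 CPM, and a seed match lies in 10 of its 12 annotated 3′ UTRs. The control genes of the Rag-Ragulator and TFEB list had 3 fallen and no risen members of 22. These were PPP3R1, a calcineurin subunit (−0.28 ± 0.06), the GTPase RRAGD (−0.22 ± 0.06) and its GTPase-activating partner FLCN (−0.22 ± 0.07). RRAGD did not pass without mock replicate 1 (0.0562) or by DESeq2's Wald test (0.0503). The call of FLCN ended on removal of mimic replicate 3 (0.0723), of mock replicate 2 (0.119) and of mock replicate 3 (0.0628). It also ended by DESeq2's Wald test (0.102).

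In the list of autophagy genes with TFEB-responsive promoters 4 of 19 fell and 2 rose. ATG16L1, which places LC3 on membranes, fell from 59.2 ± 3.98 to 44.3 ± 1.29 CPM and the lipid scramblase ATG9A from 158.9 ± 5.31 to 132.4 ± 9.38 CPM, while BECN1, part of the kinase complex that starts autophagosomes, rose from 83.5 ± 4.68 to 98.4 ± 4.64 CPM. The exons of BECN1 overlap over 23.5% of their length with CNTD1, which is transcribed the other way. CNTD1 had 34.7% of the counts of BECN1 and a log2 fold change of 0.22. The rise of BECN1 did not pass without mock replicate 1 (0.0712). The others were WIPI1 (−0.38 ± 0.11) and VPS18 (−0.23 ± 0.08), which fell, and the kinase ULK1, which rose (0.17 ± 0.05). The call of WIPI1 ended on removal of mimic replicate 1 (0.0742) or mock replicate 1 (0.0724). That of VPS18 ended on removal of any library but mimic replicate 3 (0.0834 to 0.0950). That of ULK1 ended on removal of mimic replicate 1 (0.180) or any of the mock libraries (0.0671 to 0.104). DESeq2's Wald test also ended the calls of WIPI1 (0.0740), VPS18 (0.138) and ULK1 (0.108).

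None of 13 genes of the lysosome damage response passed by edgeR's test. An unadjusted p under 0.05 was found for 4 of the 13, and for 3979 of all 15607 tested genes. The genes of the list with the smallest p were PI4K2A (−0.16 ± 0.06, edgeR adjusted p = 0.0843) and UBE2QL1 (0.29 ± 0.12, edgeR adjusted p = 0.0988). PI4K2A passed without mimic replicate 3 (0.0430) and UBE2QL1 without mock replicate 3 (0.0374).

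**Figure D4:**
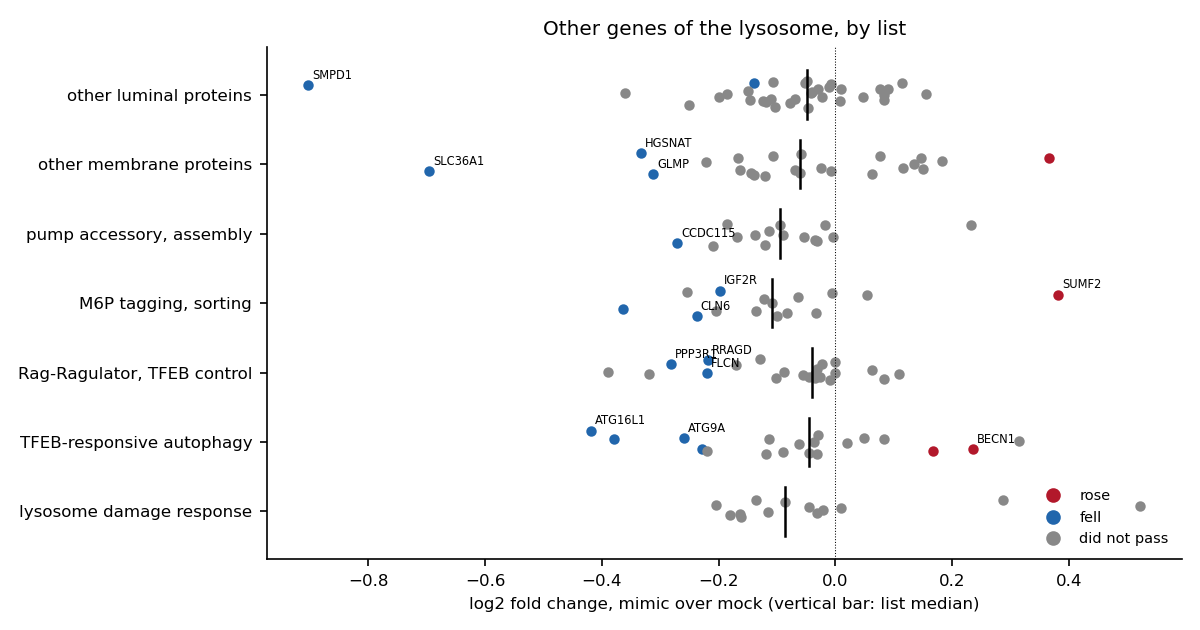
Log2 fold change (horizontal axis, mimic over mock) of the tested genes of the 7 further lists, 1 point per gene, with list medians as black bars. Blue points fell, red points rose and grey points did not pass. All 7 medians lie left of 0, between −0.11 and −0.04, and SMPD1 and SLC36A1 are the points farthest to the left.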

How the data were processed

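Gene-level counts of 6 libraries of 293T cells were used, 3 mimic and 3 mock, grouped by their titles. Each library has 1 deposited table of raw counts, whole numbers by Ensembl gene identifier, without normalization. Per the submitters' processing notes, STAR, edgeR and the build hg19 were used. The counting program, its annotation and whether it used strand: not given in the sources used here. Only genes with at least 1 count are listed, and an absent gene was taken as 0.

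Symbols came from a table of gene names (25141 of 26613 genes matched), and gene types, exon lengths, 3′ UTRs and coordinates from GENCODE release 29 (GRCh38). Counts were filtered with filterByExpr by group and scaled with TMM factors (0.994 to 1.01). The test was edgeR 4.0.16 (R 4.3.3), a robust quasi-likelihood fit with the group only, two-sided, Benjamini-Hochberg adjustment over 15607 genes and a threshold of 0.05. Standard errors were derived from the test statistic, and 95% intervals are 1.96 standard errors either side. Intervals and floors cover only the spread or counting error of these libraries. The script was tested on simulated counts. Each library was counted as 1 replicate, because the labels call the transfections independent. Libraries of a group differed by 1.27 to 2.38 times sampling noise, and edgeR's common coefficient of variation between libraries was 3.82%. The small p-values rest on this narrow spread within groups.

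Alternatives were other scalings, DESeq2 1.42.0, other filters, a replicate block and leaving out each library. The genes and lists were chosen with earlier results of these data known. Every changed gene of the group, the transcription factors, LAMP1, LAMP2, MCOLN1 and all pump subunits are given by library, the others by range with the 2 of smallest p and the most abundant of each class. In each further list up to 3 changed genes of smallest p are named, or 2 where none passed. One further gene that this rule names is not reported here.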

Additional observations from a re-analysis of the deposited data

How the results depend on the processing

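Among the lysosomal and pump genes the main fit made 12 calls. Under the other scalings, filters, tests and sample sets there were 9 to 12, genes that newly passed included. All 12 were kept under DESeq2's size factors and 9 by DESeq2's Wald test. Without mock replicate 1 the calls of GLB1, PSAP, LAMP1 and ATP6V0E2 ended and TFEB newly passed. ATP6V0A1 newly passed without mimic replicate 3, and ATP6V0C without mimic replicate 2. Leaving out 1 library gave 9 to 11 calls for the whole group, 4 to 5 for the listed lysosomal genes, 5 to 7 for the pump genes and 13 to 24 for the further lists. No named gene reversed its direction in any alternative fit. In the further lists DESeq2's Wald test called 12 genes and the fit without mimic replicate 1 13, against 20. Calls over all tested genes also went down, from 1061 risen and 966 fallen in the main fit. They were 513 and 505 by the Wald test, and 757 and 688 without mimic replicate 1. CTSA, PPT1, CLN3, ATP6V0B, ATP6V0D1, ATP6V1C1, ATP6V1D and ATP6V1E1 passed in all 12 alternative fits. The calls of GLB1, PSAP, LAMP1 and ATP6V0E2 ended in 9, 4, 2 and 5 of them, and the cause was not tested.

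Same-numbered libraries did not deviate together (correlations of 0.04, −0.05 and −0.02), so no pairing by number was seen. With 3 libraries per group these values cannot show that the cultures were unpaired. With the replicate block 11 genes of the group passed, 5 lysosomal and 6 of the pump, and 18 of the further lists. Across all tested genes 965 rose and 854 fell with the block, against 1061 and 966 in the main fit. An alternative chosen after seeing the data left out genes whose exons overlap another gene with at least 25% of their counts. It left 8 calls among 40 tested genes, all fallen, of which 4 were pump genes and 4 lysosomal.

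The number of genes with a miR-941 match was 10 for the 6-base site and 6 when any annotated 3′ UTR was searched. The promoter element was found in 8 genes as TCACGTGA and in 3 as its 10-base form, against 12 as CACGTG. Raw counts in place of length-scaled counts moved most of the isoform shares. Depth limits TFEB, IDUA, ATP6V1B1 and ATP6V1E2, whose standard errors were 0.19 to 0.26.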

Other observations

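Pseudogenes of pump subunits were left out of the group by its rule. Of 18 matching by name, 9 had any count. ATP6V1E1P1 had 15, 23 and 12 counts in the mimic libraries and 28, 16 and 25 in the mock libraries, and ATP6V1E1P3 had 20, 25 and 19 against 24, 21 and 16. The parent gene ATP6V1E1 had 744, 735 and 633 counts in the mimic libraries and 1011, 1004 and 845 in the mock libraries. How reads matching both a gene and its copies were treated is not stated in the labels.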
